A study of Mus musculus with 8 samples.

Results

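The subject here is a set of 10 genes of the principal cell, the sodium- and water-reabsorbing cell of the kidney's collecting duct, among 37583 gene identifiers counted in whole mouse kidney. They were taken from a fixed list of names: the epithelial sodium channel subunits Scnn1a, Scnn1b and Scnn1g, the channel regulators Nedd4l and Prss8, the vasopressin receptor gene Avpr2, the transcription factors Gata3 and Elf5, the matrix protein gene Npnt and the potassium channel subunit gene Kcne1. Water channel genes are not part of the set, and whole-kidney counts do not tell which cell types the reads of a gene came from. All 10 were listed in every count file, and 9 passed the filter on low counts; Avpr2 did not.

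Whole kidneys of 2 groups of mice were sequenced, with 4 libraries in each. The libraries labelled knockout came from mice carrying Six2-driven Cre (Six2Cre+), both Tfap2a alleles floxed (TFAP2Afl/fl) and 1 of the Tfap2b alleles floxed (TFAP2Bfl/WT). The control littermates are labelled only WT, and the labels do not say whether they carried floxed alleles or Cre. The labels give no age, sex, litter or sequencing batch and do not tie libraries to animals; p-values here reflect only library-to-library spread, which may be technical. The comparison asks which kidney transcripts differ when these transcription factor genes, which encode AP-2 alpha and AP-2 beta, are targeted in the Six2 lineage.

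The epithelial sodium channel sits in the apical membrane of principal cells and lets sodium enter from the urine, and the sodium pump then moves it to the blood side. Aldosterone raises channel activity through the mineralocorticoid receptor and the kinase SGK1, which restrains the ubiquitin ligase NEDD4-2 that removes the channel from the membrane. Vasopressin acts on the same cell through its V2 receptor and cyclic AMP. Six2 marks nephron progenitors, which give rise to the nephron from the glomerulus to the connecting segment, whereas the collecting duct grows from the ureteric bud.

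Each library held 13871861 to 16629301 reads on genes. Levels are CPM, read counts scaled by effective library size; group values are given as mean ± SD (n = 4), and a positive log2 difference means a higher level in the libraries labelled knockout. Between pairs of libraries the chi-square per gene was 10.7 to 86.3, where sampling noise alone gives about 1, and none looked like a repeat deposit. Tfap2a was at 3.64 to 5.81 CPM in the libraries labelled knockout and at 2.78 to 5.31 CPM in those labelled wildtype, and Tfap2b at 58.0 to 103 and 51.8 to 100.4 CPM. Log2 differences were 0.26 for Tfap2a (SE 0.24) and 0.03 for Tfap2b (SE 0.22). Without both heat-shock libraries they were 0.35 and -0.30, and without each library in turn 0.10 to 0.39 and -0.12 to 0.18. Every direction below thus rests on labels that these counts did not bear out. Whole-kidney counts include cells outside the Six2 lineage, and only 1 Tfap2b allele was floxed, so these counts alone cannot settle the labels. Gene counts can include exons outside a deleted part, and which exons were floxed is not stated in the labels. Some libraries stood apart: knockout replicate 2 and wildtype replicate 1 held adrenal transcripts (7 genes summing to 924 and 897 CPM, against 4.52 to 11.4 CPM elsewhere). Knockout replicates 2 and 4 were high in 5 heat-shock genes (759.8 and 1220.4 CPM, against 255 to 347 CPM elsewhere). Knockout replicate 4 and wildtype replicate 4 were high in the clock gene Arntl (24.3 and 20.4 CPM, against 1.77 to 6.76 CPM elsewhere). Knockout replicate 1 was high in 4 erythroid genes (7719 CPM, against 116 to 1309 CPM elsewhere). Leaving out both heat-shock libraries leaves the knockout label with replicates 1 and 3 only. It also drops an adrenal library (knockout replicate 2) and a high-Arntl library (knockout replicate 4).

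Every principal cell gene overlapped between the groups, and none passed the test. By edgeR's quasi-likelihood test, 0 of the 9 tested genes passed an adjusted p of 0.05, against a background of 0% of 14433 genes, and 0 had an unadjusted p under 0.05, against a background of 4.00% (2.17% higher and 1.84% lower in the knockout label). Groups that did not overlap were found for 0 of the 9, against a background of 1.97% (1.03% higher and 0.942% lower). DESeq2 and limma-voom also called 0 of them, with 0 at an unadjusted p under 0.05. Log2 differences were positive for 6 and negative for 3 genes, with a median of 0.06, and ranged from -0.27 for Kcne1 to 0.32 for Elf5. Over all tested genes 7405 were positive and 7028 negative, and the median was 0.01. In whole kidney, fewer cells of a type and less RNA per cell cannot be told apart.

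**Figure D1:**
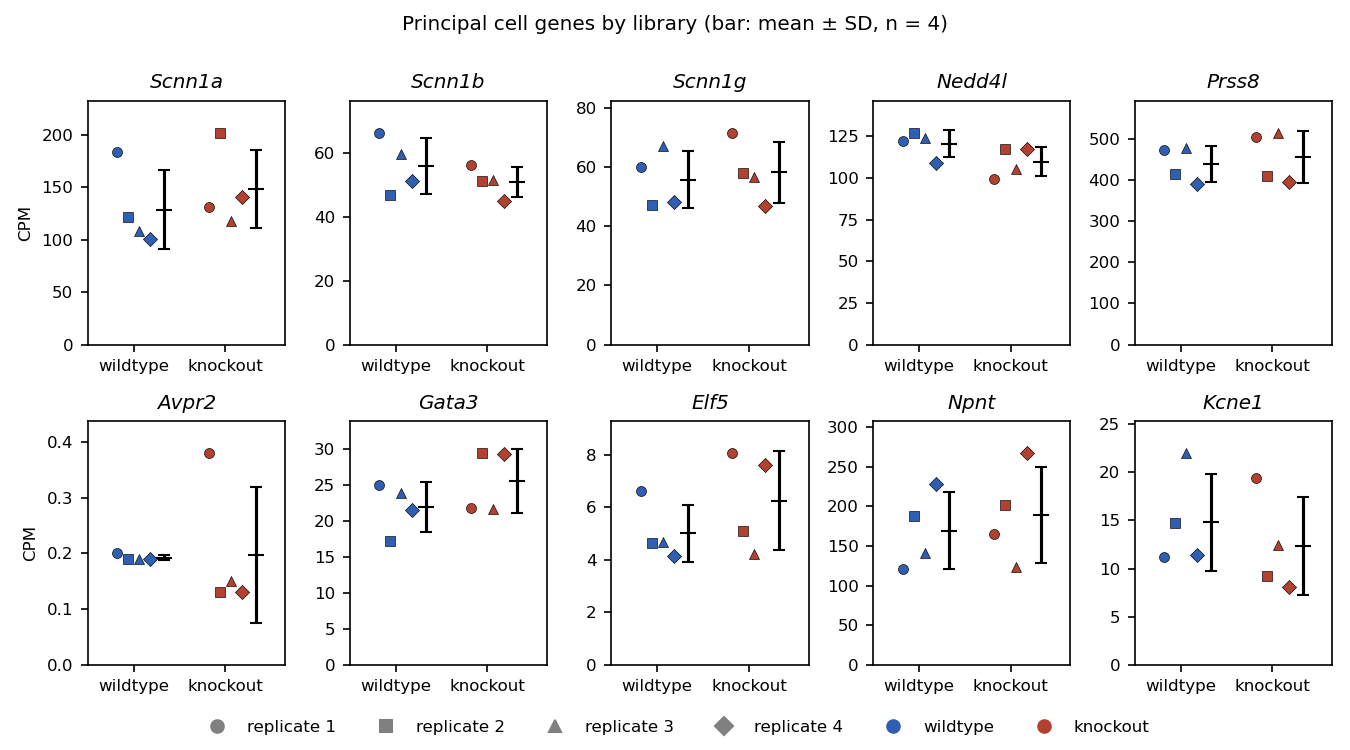
Each panel plots 1 of the 10 principal cell genes, with CPM on a vertical axis that starts at 0, the group on the horizontal axis, 1 point per library (symbol by replicate) and a bar for mean ± SD (n = 4). The groups overlap in every panel; Scnn1a is highest in knockout replicate 2 and wildtype replicate 1, and Npnt in knockout replicate 4 and wildtype replicate 4.

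Gene positions below are those of GENCODE M21 on GRCm38. Levels between genes were compared per kilobase of annotated exon. Prss8 was the most abundant, with a mean of 241 CPM per kilobase over 8 libraries (210 to 278). Npnt followed at 35.6 (23.9 to 53.1) and Scnn1a at 33.5 (24.4 to 48.8), and their ranges overlapped. Scnn1b was at 20.3 (17 to 25.2) and Scnn1g at 19 (15.6 to 23.9) CPM per kilobase, so they did not differ beyond their spread. Across libraries the range of Scnn1b overlapped that of Scnn1a at its upper end. Within each library Scnn1b was lower, at 0.399 to 0.869 times Scnn1a. Nedd4l (6.52), Gata3 (5.97) and Kcne1 (4.22) came next with overlapping ranges, then Elf5 at 0.958 and Avpr2 at 0.0678 CPM per kilobase. With the length of the longest coding transcript in place of all exons, Npnt and Scnn1a exchanged places and the rest of the order was the same. Nedd4l then stood at 14.8, against 7.39 for Gata3 and 4.28 for Kcne1. Its overlap with them above thus rests on the exon length used.

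Scnn1a (ENSMUSG00000030340, chromosome 6, 125320659 to 125344943) encodes the alpha subunit, which the channel needs to conduct and to reach the membrane. It measured 131, 202, 118 and 141 CPM across replicates 1 to 4 of the knockout label, against 184, 122, 108 and 101 CPM for the wildtype label. The 2 highest libraries, 1 in each group, were those with adrenal transcripts; the other 6 lay between 101 and 141 CPM. By label it differed by 0.20 on the log2 scale, with SE 0.22 and a 95% interval from -0.28 to 0.68 (edgeR adjusted p = 0.957). Without both adrenal libraries the difference was 0.24 (SE 0.12; edgeR adjusted p = 0.818), without knockout replicate 2 alone 0.01, and without wildtype replicate 1 alone 0.43 (SE 0.18; edgeR adjusted p = 0.579). Without both heat-shock libraries it was -0.05.

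Over the 8 libraries, the genes whose log2 CPM was most like that of Scnn1a were Asb15 (Pearson r 0.978), Cyp21a1 (0.975) and Acsbg1 (0.969), given as a description. Cyp21a1, the steroid 21-hydroxylase of the adrenal cortex, was at 126 CPM in knockout replicate 2 and 105 CPM in wildtype replicate 1, and at 0.00 to 1.60 CPM in the other 6. Acsbg1 was at 10.9 and 13.8 CPM in the same libraries and at 0.65 to 1.80 CPM elsewhere. Asb15 moved less, from 3.81 to 4.69 CPM in 6 libraries to 6.19 and 5.72 CPM in the adrenal libraries. These genes were picked from all tested genes for likeness to Scnn1a, so their shared high libraries follow from that choice. The part of the adrenal transcripts in the level of Scnn1a was not tested.

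Scnn1b (ENSMUSG00000030873, chromosome 7, 121865038 to 121918514) encodes the beta subunit. It had 56.3, 51.3, 51.6 and 44.8 CPM in replicates 1 to 4 labelled knockout, and 66.3, 46.8, 59.7 and 51.2 CPM in those labelled wildtype. The extremes were wildtype replicate 1 and knockout replicate 4, and the adrenal library of the knockout label was not raised. Its fitted log2 difference of -0.13 had a 95% interval from -0.41 to 0.14 and SE 0.12 (edgeR adjusted p = 0.957).

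Scnn1g (ENSMUSG00000000216, chromosome 7, 121734479 to 121768475) encodes the gamma subunit and lies 96.6 kb from Scnn1b on chromosome 7. It gave 71.6, 57.9, 56.5 and 46.8 CPM for the knockout label (replicates 1 to 4) and 60.2, 47.3, 67.1 and 48.2 CPM for the wildtype label. Both replicates numbered 4 and wildtype replicate 2 were low, and knockout replicate 1 and wildtype replicate 3 were high. On the log2 scale the labels differed by 0.06, within a 95% interval from -0.28 to 0.40 (SE 0.15; edgeR adjusted p = 0.97), and by -0.05 without knockout replicate 1 and by -0.01 without wildtype replicate 2.

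Among the 45 pairs of the 10 genes, Scnn1b and Scnn1g had the highest rank correlation (Spearman rho 0.88, exact permutation p = 0.00724, adjusted p = 0.241; Pearson r 0.74, exact permutation p = 0.0359, adjusted p = 0.443). Without the 2 libraries farthest from the median of Scnn1b, r was 0.87. Scnn1g also varied with Prss8 (r 0.77, exact permutation p = 0.0393, adjusted p = 0.443; rho 0.62, exact permutation p = 0.115, adjusted p = 0.486), with r at 0.64 without 2 libraries. In all, 4 pairs had an unadjusted Pearson p under 0.05 and 0 pairs passed after adjustment. The genes most like Scnn1b were Oxr1 (r 0.979), ENSMUSG00000093459 (0.975) and Tmem245 (0.961). Those most like Scnn1g were the ribosomal protein gene Rpl37a (r 0.974), Ypel5 (0.974) and ENSMUSG00000041717 (0.964). Of these, Rpl37a ranged from 20.0 CPM in knockout replicate 4 to 42.6 CPM in knockout replicate 1, the same libraries that bounded Scnn1g. The genes named for Scnn1b and Scnn1g were picked from all tested genes for likeness, so such shared extremes follow from that choice.

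Ratios between subunits within a library do not depend on library scaling. Per kilobase, Scnn1b was 0.675, 0.399, 0.686 and 0.5 times Scnn1a in knockout replicates 1 to 4 and 0.564, 0.602, 0.869 and 0.796 times in wildtype replicates 1 to 4. The lowest ratio was in knockout replicate 2, where Scnn1a was highest. On the log2 scale the means were -0.86 ± 0.38 (SD, n = 4) and -0.52 ± 0.30 (SD, n = 4), a difference of -0.34 (two-sided exact permutation p = 0.229, adjusted over 3 ratios p = 0.343), which was -0.18 without knockout replicate 2 and -0.03 without both heat-shock libraries. For Scnn1g to Scnn1a the log2 means were -0.86 ± 0.44 and -0.72 ± 0.40, a difference of -0.15 (exact permutation p = 0.657, adjusted p = 0.657).

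Scnn1b to Scnn1g was the steadiest of the 3 ratios, at 0.893, 1.01, 1.04 and 1.09 in knockout replicates 1 to 4 and at 1.25, 1.12, 1.01 and 1.21 in wildtype replicates 1 to 4. Wildtype replicate 3 lay among the knockout libraries and knockout replicate 4 above it, so the groups overlapped. The log2 means were 0.00 ± 0.12 and 0.19 ± 0.13, a difference of -0.19 (exact permutation p = 0.0857, adjusted p = 0.257). The smallest p that 70 arrangements allow is 0.0286.

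**Figure D2:**
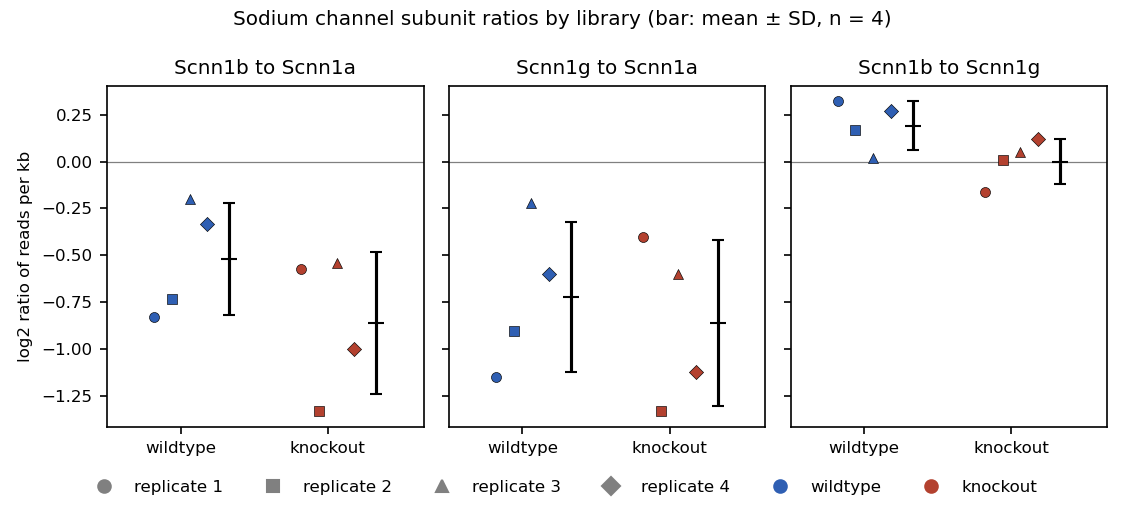
The vertical axis gives the log2 ratio of reads per kilobase between 2 sodium channel subunits, with 1 point per library (symbol by replicate), bars for mean ± SD (n = 4) and a line at equal levels. Scnn1b and Scnn1g stay within -0.16 and 0.32 of each other, while both ratios to Scnn1a fall to -1.33 in knockout replicate 2.

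Of the 10 genes, 6 had entries in the RefSeq promoter table (GRCm38.p6), with 8 windows; Scnn1a, Nedd4l, Prss8 and Kcne1 had none. The letters GCCNNNGGC and GCCNNNNGGC, forms of the AP-2 binding motif that read the same on both strands, were searched in the 250 bases before each start. GCCNNNGGC was in 2 of the 8 windows, against 13.7% of all 32851 windows, and GCCNNNNGGC in 1 of 8, against 12.3%. The steroid receptor palindrome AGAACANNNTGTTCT was in 0 of the 8 and in 0.00913% of all windows. The sequences are shown because AP-2 factors were targeted and because Scnn1b and Scnn1g are neighbours; they run 5′ to 3′ on the gene's strand, and capitals mark the AP-2 letters. The windows are chr2:9878601-9878850 (minus strand) for Gata3, chr3:132950292-132950541 (minus) for Npnt, chr7:121864788-121865037 (plus) for Scnn1b and chr7:121734229-121734478 (plus) for Scnn1g.
Gata3: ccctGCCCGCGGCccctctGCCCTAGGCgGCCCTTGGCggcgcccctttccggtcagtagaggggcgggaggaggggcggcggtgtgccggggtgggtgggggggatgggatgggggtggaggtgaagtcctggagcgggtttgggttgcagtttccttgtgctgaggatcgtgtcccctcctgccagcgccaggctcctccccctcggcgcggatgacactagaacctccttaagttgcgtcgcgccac
Npnt: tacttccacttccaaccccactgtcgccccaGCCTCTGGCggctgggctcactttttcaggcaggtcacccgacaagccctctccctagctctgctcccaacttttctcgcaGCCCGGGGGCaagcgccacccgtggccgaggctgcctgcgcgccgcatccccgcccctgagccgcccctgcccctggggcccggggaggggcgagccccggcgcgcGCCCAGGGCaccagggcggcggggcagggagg
Scnn1b: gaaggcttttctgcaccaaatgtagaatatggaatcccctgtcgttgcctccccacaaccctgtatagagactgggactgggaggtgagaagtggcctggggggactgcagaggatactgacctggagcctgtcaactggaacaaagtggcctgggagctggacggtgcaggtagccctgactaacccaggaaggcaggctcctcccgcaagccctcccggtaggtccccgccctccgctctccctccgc
Scnn1g: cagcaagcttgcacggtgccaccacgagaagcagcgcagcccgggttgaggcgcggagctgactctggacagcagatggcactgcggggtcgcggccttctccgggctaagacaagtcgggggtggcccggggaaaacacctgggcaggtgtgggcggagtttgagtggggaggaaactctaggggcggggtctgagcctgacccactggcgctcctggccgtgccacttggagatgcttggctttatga
With the base before the start as position -1, the 3 matches in Gata3 began at -246, -231 and -221. In the Npnt window shown, the 2 GCCNNNGGC matches began at -219 and -32 and the GCCNNNNGGC match at -138, and none of these overlapped another. The other Npnt window, chr3:132949815-132950064 (minus), held 0 matches of either form. The Gata3 window lies within the annotated span of the gene and over an exon of Gm13256 on the other strand. The windows of Scnn1b and Scnn1g held 0 matches. Base composition differed, with G and C at 70% and 74% in Gata3 and Npnt and at 60.8% and 65.2% in Scnn1b and Scnn1g. A match is only the presence of these letters.

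Among the regulators of the channel, Nedd4l (ENSMUSG00000024589, chromosome 18, 64887705 to 65217828), which encodes NEDD4-2, measured 99.5, 117, 105 and 117 CPM across replicates 1 to 4 of the knockout label, against 122, 127, 124 and 109 CPM for the wildtype label. Knockout replicates 1 and 3 lay below every wildtype library, wildtype replicate 4 lay between them and the other 2 knockout libraries, and the other 3 wildtype libraries lay above every knockout library. By label it differed by -0.13 on the log2 scale, with SE 0.09 and a 95% interval from -0.34 to 0.07 (edgeR adjusted p = 0.957), the narrowest interval of the set. It was negative under every alternative run, from -0.24 to -0.09, with no adjusted p below 0.714.

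Prss8 (ENSMUSG00000030800, chromosome 7, 127925716 to 127930104) encodes prostasin, a membrane-anchored serine protease that activates the channel. It had 503, 408, 514 and 395 CPM in replicates 1 to 4 labelled knockout, and 472, 415, 477 and 389 CPM in those labelled wildtype. In both labels replicates 1 and 3 were high and replicates 2 and 4 low. Its fitted log2 difference of 0.05 had a 95% interval from -0.22 to 0.33 and SE 0.12 (edgeR adjusted p = 0.968), and the difference was -0.01 without knockout replicate 3. Of its exon bases, 6.59% are shared with Kat8 on the other strand.

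Avpr2 (ENSMUSG00000031390, chromosome X, 73892102 to 73895502), the V2 receptor gene, had 6, 2, 2 and 2 reads in knockout replicates 1 to 4 and 3 in each wildtype library. These are 0.13 to 0.38 CPM, where 3 reads correspond to 0.188 to 0.223 CPM, so no fold is given. Of its 2886 annotated exon bases, 2347 (81.3%) are shared with Arhgap4 on the other strand, which was at 4.52 to 6.45 CPM. Counting ignored strand, per the deposited file names, and reads on shared bases cannot be assigned between such genes; their part in the low count was not tested. The level of this receptor in these kidneys is not known from the counts.

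Gata3 (ENSMUSG00000015619, chromosome 2, 9857078 to 9890034), a zinc-finger factor needed for ureteric bud growth, gave 21.8, 29.5, 21.7 and 29.3 CPM for the knockout label (replicates 1 to 4) and 25.0, 17.2, 24.0 and 21.6 CPM for the wildtype label. Its 2 highest libraries were the heat-shock libraries, and its lowest was wildtype replicate 2. On the log2 scale the labels differed by 0.22, within a 95% interval from -0.12 to 0.57 (SE 0.16; edgeR adjusted p = 0.957), and by -0.01 without the heat-shock libraries. The part of the heat-shock pattern was not tested. Gata3 is also made by mesangial cells; the other 3 mesangial markers Itga8, Pdgfrb and Ptn differed by 0.01 (SE 0.26), 0.10 (SE 0.17) and 0.04 (SE 0.37).

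Elf5 (ENSMUSG00000027186, chromosome 2, 103411688 to 103450989), an ETS-family factor of principal cells, measured 8.06, 5.10, 4.23 and 7.62 CPM across replicates 1 to 4 of the knockout label, against 6.60, 4.63, 4.68 and 4.13 CPM for the wildtype label. It rested on 57 to 127 reads per library. The log2 difference was the highest of the set, 0.32 (SE 0.24, 95% interval -0.22 to 0.86; edgeR adjusted p = 0.957), and knockout replicates 1 and 4 alone exceeded all wildtype libraries. Leaving out knockout replicate 1 gave 0.18, and leaving out wildtype replicate 1 gave 0.48. With both adrenal libraries left out it was 0.57, and with both high-Arntl libraries left out 0.13.

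Npnt (ENSMUSG00000040998, chromosome 3, 132881745 to 132950291) encodes nephronectin, a basement membrane ligand of integrin alpha 8 beta 1 that the ureteric bud makes. It had 165, 201, 123 and 267 CPM in replicates 1 to 4 labelled knockout, and 120.3, 188, 141 and 228 CPM in those labelled wildtype. In each label replicates 4 and then 2 were highest. By label it differed by 0.16 on the log2 scale, with SE 0.26 and a 95% interval from -0.41 to 0.73 (edgeR adjusted p = 0.96), which became -0.05 without knockout replicate 4 and -0.24 without both heat-shock libraries.

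Npnt was set against Arntl, a core clock transcription factor gene. The libraries with the most Arntl, knockout replicate 4 and wildtype replicate 4, had the most Npnt. Because these 2 stood apart, the relation was computed in the other 6 libraries, where r was 0.87 (exact permutation p = 0.0653, adjusted over 9 genes p = 0.588) and rho 0.71 (exact permutation p = 0.136, adjusted p = 0.525). This relation was chosen after its values were seen and does not pass the adjustment. Other members also varied with Arntl. Over all 8 libraries r was 0.94 for Npnt, -0.83 for Prss8, -0.70 for Scnn1g and -0.68 for Scnn1b. For the remaining tested members it lay between -0.55 (Kcne1) and 0.20 (Elf5). In the 6 libraries rho for Scnn1b was -0.71 (exact permutation p = 0.136, adjusted p = 0.525). Picked from all tested genes as a description, the genes most like Npnt over 8 libraries were Pgam1 (r 0.989), Igf2bp2 (0.966) and Myo10 (0.965). They are a glycolytic enzyme gene, an RNA-binding protein gene and an unconventional myosin gene. Npnt went against Prss8 (r -0.87, exact permutation p = 0.00967, adjusted p = 0.435; rho -0.81, exact permutation p = 0.0218, adjusted p = 0.327), with r at -0.80 without 2 libraries. It also went against Scnn1b (r -0.76, exact permutation p = 0.0301, adjusted p = 0.443; rho -0.86, exact permutation p = 0.0107, adjusted p = 0.241), with r at -0.56 without 2 libraries.

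**Figure D3:**
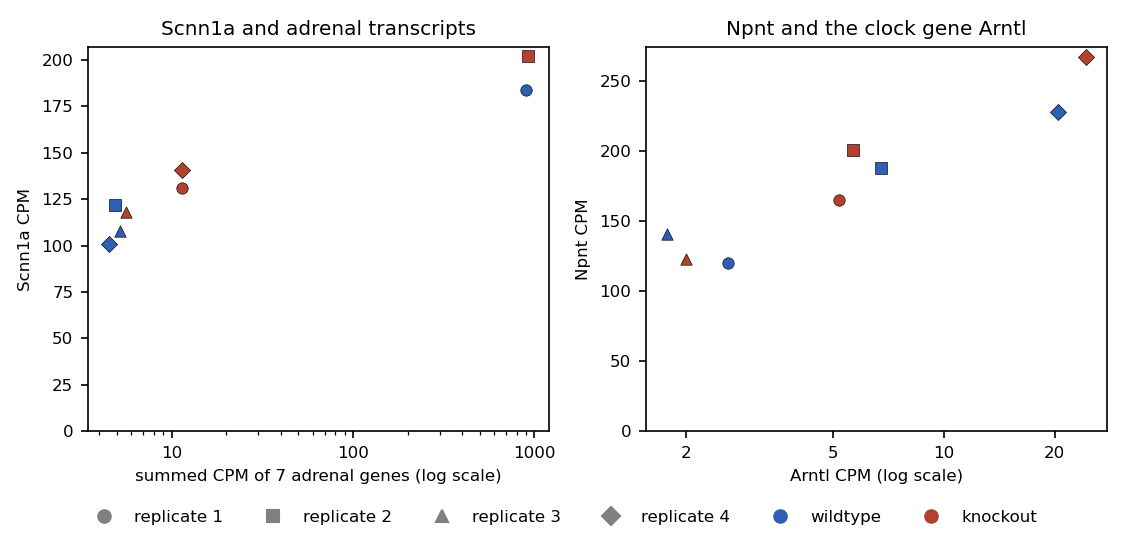
Left, Scnn1a CPM against the summed CPM of 7 adrenal genes; right, Npnt CPM against Arntl CPM, both with a log horizontal axis and 1 point per library (colour by label, symbol by replicate). The 2 adrenal libraries lie at 202 and 184 CPM of Scnn1a above the other 6, and Npnt is highest at 267 and 228 CPM where Arntl is highest.

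Kcne1 (ENSMUSG00000039639, chromosome 16, 92345982 to 92359468) encodes a small beta subunit of the potassium channel KCNQ1. It gave 19.4, 9.25, 12.5 and 8.09 CPM for the knockout label (replicates 1 to 4) and 11.2, 14.7, 22.0 and 11.4 CPM for the wildtype label. Wildtype replicate 3 and knockout replicate 1 were high, the libraries that also led Scnn1g. Its fitted log2 difference of -0.27 had a 95% interval from -0.94 to 0.40 and SE 0.30 (edgeR adjusted p = 0.957), with the widest interval of the set. Leaving out knockout replicate 1 gave -0.58, knockout replicate 2 gave -0.15, knockout replicate 4 gave -0.11, wildtype replicate 3 gave -0.01 and both heat-shock libraries gave 0.11. Its edgeR biological coefficient of variation was 0.30, against a median of 0.17 over all tested genes; that of Nedd4l was 0.12 and that of Scnn1b 0.14. Its partner gene Kcnq1 was at 36.3 ± 6.35 and 35.7 ± 7.63 CPM by label.

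Around these genes, 7 lists of 67 genes in total cover the hormone, trafficking and transport pathways. Of the 66 tested by edgeR and limma-voom and the 67 fitted by DESeq2, 0 passed. By edgeR 40 were positive and 26 negative, against 7405 positive and 7028 negative over all tested genes, and the median log2 difference was 0.06. At an unadjusted p under 0.05 there were 3 by edgeR, 5 by DESeq2 and 2 by limma-voom. The 3 by edgeR were Aqp2, Aqp3 and Pde4d, against a background of 4.00%. By edgeR, 0 of the 66 had groups that did not overlap, against a background of 1.97%.

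In the list of 12 aldosterone and glucocorticoid response genes, 9 were positive and 3 negative, with a median of 0.13. Sgk1, the aldosterone-induced kinase, measured 132, 87.3, 64.0 and 98.8 CPM across replicates 1 to 4 of the knockout label, against 85.0, 69.9, 103 and 51.3 CPM for the wildtype label, with a log2 difference of 0.30 (SE 0.25). Tsc22d3, a steroid-induced leucine zipper gene that restrains channel removal, was at 77.0 to 87.4 CPM in the knockout label and 34.0 to 84.3 CPM in the wildtype label, with its low value in wildtype replicate 4. The widest difference was that of Zbtb16, a zinc-finger factor gene induced by glucocorticoids, at 1.67 (SE 0.82). Zbtb16 was at 14.3 CPM in knockout replicate 2, 20.5 in knockout replicate 4 and 8.30 in wildtype replicate 1, and at 1.25 to 3.43 CPM elsewhere; without both heat-shock libraries its difference was 0.03. Hsd11b2, the enzyme that shields the mineralocorticoid receptor from glucocorticoids, differed by 0.08 (SE 0.19), and the receptor gene Nr3c2 was at 23.5 ± 1.37 and 24.2 ± 3.20 CPM.

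Of 14 genes of channel trafficking and proteolysis, 6 were positive and 8 negative, with a median of -0.02. St14, the protease matriptase, differed by 0.32 (SE 0.15) and Spint1, an inhibitor of such proteases, by 0.16 (SE 0.09). Without both heat-shock libraries the difference of St14 was 0.07. Wnk1, a kinase of distal salt transport, was at 436 ± 28.3 CPM in the knockout label and 503 ± 42.5 CPM in the wildtype label, a difference of -0.21 (SE 0.10; edgeR adjusted p = 0.957).

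Of 12 vasopressin and cyclic AMP genes, 6 were positive and 6 negative. The cyclic AMP phosphodiesterase gene Pde4d was at 21.1 ± 2.93 and 17.0 ± 2.05 CPM, a difference of 0.32 (SE 0.14; edgeR adjusted p = 0.957) that was 0.15 without both heat-shock libraries. Prkar1a, a regulatory subunit of protein kinase A, differed by 0.15 (SE 0.09) and Arrb1, an arrestin gene, by -0.28 (SE 0.20). Gnas, the stimulatory G protein gene, was counted at 4.69 to 10.4 CPM, and 22% of its exon bases are shared with genes on the other strand. Strand was ignored in counting, so the level of Gnas in these kidneys is not known from the counts.

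The sodium pump beta subunit gene Atp1b1 differed by 0.09 (SE 0.10) and the secretory potassium channel gene Kcnj1 by 0.17 (SE 0.14); of 8 genes in that list 5 were positive. Among 12 transcription factor genes of the collecting duct, 8 were positive. Tfcp2l1, the most abundant, was at 348 ± 49.0 and 348 ± 42.7 CPM, while the factor genes Elf3, Gata2 and Hoxd8 differed by 0.30 (SE 0.14), 0.25 (SE 0.15) and 0.15 (SE 0.09). Without both heat-shock libraries the difference of Elf3 was 0.06. Of the nephronectin partner genes 5 of 6 could be tested; Fras1, a basement membrane protein, differed by -0.27 (SE 0.13), Frem1 and Frem2 by 0.11 (SE 0.18) and -0.09 (SE 0.17), and the integrin subunit Itgb1 by 0.00 (SE 0.10).

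The 3 water channel genes of the same cell were all positive, with a median of 0.49; the contrast with the sodium channel genes was not tested. Aqp2 had 683, 621, 241 and 763 CPM in replicates 1 to 4 labelled knockout, and 391, 291, 276 and 375 CPM in those labelled wildtype, a log2 difference of 0.79 (SE 0.31; edgeR adjusted p = 0.957), and Aqp3 and Aqp4 differed by 0.31 (SE 0.13) and 0.49 (SE 0.28). Without both heat-shock libraries these differences were 0.47 for Aqp2, 0.17 for Aqp3 and 0.46 for Aqp4. Without each library in turn they ran from 0.63 to 1.05 for Aqp2, 0.23 to 0.40 for Aqp3 and 0.34 to 0.77 for Aqp4. The lowest adjusted p of Aqp2 under any alternative was 0.148 (edgeR, without knockout replicate 3).

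**Figure D4:**
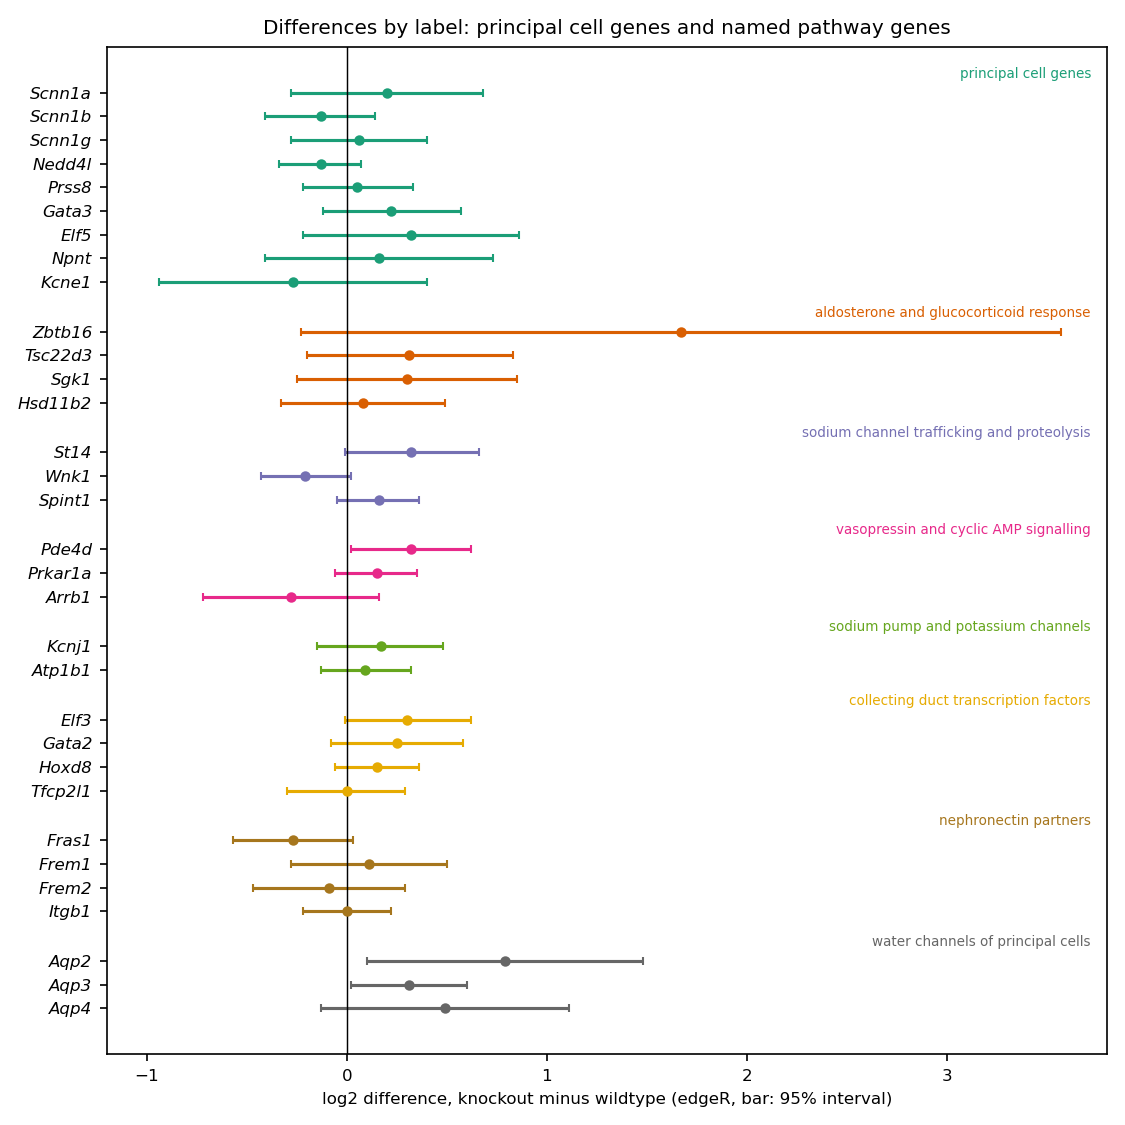
The horizontal axis gives the log2 difference, knockout minus wildtype by label, from edgeR, with a point per gene and a bar for its 95% interval; genes are grouped by list. All 9 tested principal cell genes have intervals that include 0, from -0.94 at the lowest bound (Kcne1) to 0.86 at the highest (Elf5), and Aqp2, Aqp3 and Pde4d are the genes whose intervals do not.

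Other cell types that share the collecting duct or these genes were read from marker lists, and every list was detected with 0 genes at 0 in all libraries. The 9 intercalated cell genes had a median log2 difference of 0.14 and summed to 766 to 977 CPM by knockout label and 704 to 924 CPM by wildtype label. The 6 genes of the connecting and distal convoluted tubule, which also use the sodium channel, had a median of -0.03 and summed to 989.7 to 1314 and 882 to 1427 CPM. Urothelial genes, whose tissue also makes Gata3 and the channel, summed to 30.9 to 56.0 and 17.5 to 56.0 CPM, with all 7 positive and a median of 0.34. The 5 podocyte genes, whose cells also make nephronectin, were all positive with a median of 0.33, and summed to 121 to 158 and 78.7 to 155 CPM. Inner medullary and thin limb genes had a median of 0.35, with 5 of 6 positive and sums of 904 to 1297 and 728 to 929.7 CPM. The highest sums of this list were in the heat-shock libraries, knockout replicates 2 (1241 CPM) and 4 (1297 CPM). Knockout replicates 1 and 3 were at 904 and 924 CPM, within the wildtype range. Cryab of this list was the only marker gene whose groups did not overlap, against a background of 1.97%. It differed by 0.66 (SE 0.16, edgeR adjusted p = 0.957). An unadjusted edgeR p under 0.05 was found for 3 heat-shock genes, against a background of 4.00%. It was also found for 1 gene each of this, the podocyte, thick ascending limb and proximal tubule lists. The 6 thick ascending limb genes had a median of 0.25, the 7 proximal tubule genes -0.11 and the 8 clock genes -0.05. The 4 tested adrenal genes had a median of 0.05 and the 5 heat-shock genes, high in knockout replicates 2 and 4, one of 1.54. The part of these cell types in the values of the 10 genes was not tested.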

How the data were processed

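Total RNA of whole kidney was made into directional libraries, per the labels' protocols. The deposited values are raw counts of reads per gene that the authors made with STAR and HTSeq on mm9, per the submitters' processing notes, which also name edgeR; no version or annotation is named there. Strand was ignored in counting, per the deposited file names. Lines that name no gene (no feature 11.6% to 16.2%, ambiguous 2.05% to 2.31%, not unique 15.8% to 20.9% of all counts) were left out.

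Symbols, for 32860 of 37583 identifiers, and exon lengths come from GENCODE M21 (GRCm38); no coordinate was converted. Groups follow the titles. The test was edgeR 4.0.16 in R 4.3.3 (quasi-likelihood, robust, TMM, default filterByExpr with a minimum count of 10 and total of 15, genotype as the only term), two-sided, Benjamini-Hochberg over 14433 genes; standard errors and 95% intervals are from that fit. CPM use TMM-scaled sizes, and correlations use log2 CPM with a prior count of 2. The floor of 3 counts covers counting error only, since PCR copies count as reads. The fit was tested on simulated data. Named genes were the 10 members, the targeted genes, from each list the 3 lowest p and the most abundant gene, and the 3 genes most like Scnn1a, Scnn1b, Scnn1g and Npnt; others were named after their values were seen. A gene that the rule names is not reported here. Alternatives were other scalings and filters, DESeq2 1.42.0, limma-voom 3.58.1, a replicate block and libraries left out. Members, lists and left-out libraries were chosen with earlier results of these data known. Figures used matplotlib 3.10.9.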

Additional observations from a re-analysis of the deposited data

Results flagged for a closer look

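Avpr2 in knockout replicate 1 stood far from the other libraries of its label, at 0.38 CPM (6 reads) against 0.13 to 0.15 CPM (2 reads each). It was the 1 flag among 20 groups of 4 libraries examined for the 10 genes, and chance flags about 1 in 20 groups of continuous, normally distributed values. Reads of 6, 2, 2 and 2 are tied whole numbers, so that rate does not hold for this flag. At these counts the gap is a difference of 4 reads, and 81.3% of the gene's exon bases are shared with Arhgap4.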

How the results depend on the processing

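Under every alternative, 0 principal cell genes and 0 pathway genes passed. Over all genes the count of 0 became 4 by DESeq2 and 1 without both heat-shock libraries, and 0 to 2 without each library in turn (1 without knockout replicate 3, 1 without knockout replicate 4 and 2 without wildtype replicate 1); the calls were Lpl, Col19a1, Ndufs5 and ENSMUSG00000054588 by DESeq2 and Ndufs5 without the heat-shock libraries. Genes at an unadjusted p under 0.05 numbered 578, 1075 with a replicate block, 1252 without knockout replicate 3, 1250 without wildtype replicate 1, 343 without wildtype replicate 2, 309 without both libraries with high Arntl and 904 without both heat-shock libraries. The cause was not tested.

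Without both heat-shock libraries, differences changed sign for Scnn1a (-0.05), Gata3 (-0.01), Npnt (-0.24), Kcne1 (0.11), Tfap2b (-0.30) and Kcnj1 (-0.01). So did the ratio of Scnn1g to Scnn1a (0.22). That setting dropped knockout replicates 2 and 4, an adrenal and a high-Arntl library as well, and the part of each pattern was not tested. Without each library in turn, the range included both signs for Scnn1g (-0.05 to 0.16), Prss8 (-0.01 to 0.12), Npnt (-0.05 to 0.34), Tfap2b (-0.12 to 0.18), Hsd11b2 (-0.07 to 0.24), Frem2 (-0.19 to 0.04), Tfcp2l1 (-0.08 to 0.09), Itgb1 (-0.04 to 0.05) and Scnn1g to Scnn1a (-0.30 to 0.02). With 1 sign throughout, the range was wide for Scnn1b (-0.21 to -0.04), Gata3 (0.12 to 0.30), Elf5 (0.18 to 0.48), Kcne1 (-0.58 to -0.01), Zbtb16 (1.11 to 2.70), Tsc22d3 (0.10 to 0.46) and Sgk1 (0.11 to 0.47). Scnn1b to Scnn1a ran from -0.44 to -0.18 and Scnn1b to Scnn1g from -0.25 to -0.13, with a lowest exact p of 0.0571.

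The labels do not say whether replicate numbers pair the libraries. Deviations of same-numbered libraries correlated at 0.23, -0.23, 0.28 and 0.29; knockout replicates 1 and 4 were most like their own number, and knockout replicates 2 and 3 most like wildtype replicates 1 and 2. Because 1 pair was not positive, the numbers were not treated as pairs. With the number as a replicate block, 0 genes passed, the lowest adjusted p over the 9 genes was 0.729, and the ratio of Scnn1b to Scnn1g differed by -0.19 (exact sign-flip p = 0.25).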

Other observations

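Pvalb, the calcium-binding protein of the early distal convoluted tubule, spread more widely than any member, from 0.84 CPM in wildtype replicate 4 to 43.2 CPM in knockout replicate 3. It was chosen after its values were seen. Its high libraries were knockout replicates 1 and 3 and wildtype replicate 3 (27.5 to 43.2 CPM), and the difference by label was 0.98 (SE 1.21).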
